A study of Mus musculus with 2 samples.

Results

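Integrins and laminins form a receptor and ligand system at the surface of cells and in the basement membrane beneath them, and 37 of the 19059 genes in the probe set belong to it by symbol: 18 integrin alpha chains (Itga1 to Itgax), 8 integrin beta chains and 11 laminin chains. Members were matched by symbol, with no measured value in the match, but they were chosen with earlier results of these data known. Of the members, 36 are described here. An integrin is a dimer of 1 alpha and 1 beta chain, and the pair decides what it holds: laminin, collagen, proteins with an RGD sequence such as fibronectin and vitronectin, or surface proteins of other cells. A laminin is a trimer of an alpha, a beta and a gamma chain. Carcinoma cells are known for the epithelial laminin that holds Lama3 and Lamb3 and for the receptor of Itga6 and Itgb4, vessels for laminins built on Lama4 and Lama5, and leukocytes for the integrins that contain Itgb2.

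The tumors were orthotopic KPC tumors, grown in the mouse pancreas from KPC cells. The animals received vehicle (DMSO) or EIPA at 10 mg/kg, which blocks macropinocytosis, the bulk uptake of fluid by cells. Each of the 2 samples pooled 4 flash-frozen tumors, and fixed cells were read with gene-specific probes. The cell line and the age and strain of the host mice are not given in the sources used here. Both samples lie in 1 matrix, and no label ties barcode numbering to a treatment. The libraries are therefore called library 1 and library 2, and no value below has a treatment direction. With 1 library per treatment no test was possible, and cells are not replicates.

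Library 1 held 12337 cells with 203459556 UMIs and library 2 held 11945 cells with 185474400 UMIs, and 225 barcode sequences occurred in both. After filters, 11115 and 10785 cells were grouped into 25 clusters without using the members. Clusters were named by marker genes, and each name stands for cells like that type: 11 tumor clusters with 6769 and 6537 cells, fibroblasts (368 and 452), pericytes or smooth muscle cells (61 and 50, called pericytes below), blood endothelial cells (148 and 129), macrophages or monocytes (559 and 684, called macrophages), neutrophils (136 and 138), dendritic cells (36 and 176) and T cells (124 and 356). A level is the UMI sum of a class per 1000000 UMIs of that class (CPM), and pairs of values give library 1 first and library 2 second. Intervals are exact Poisson 95% intervals and cover counting error only. Probes differ between genes, so levels are compared within a gene.

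Epithelial markers were detected in every class. The median level of 15 epithelial markers, as a percentage of their level in tumor cells, was 21.8 and 23.7 in fibroblasts, 21.2 and 25.2 in endothelial cells, 26.9 and 25.2 in pericytes and 26.8 and 23.1 in macrophages. It was 42.6 and 37.0 in dendritic cells, 46.0 and 48.3 in T cells and 44.5 and 63.5 in neutrophils. A member of the tumor cells at or near these percentages in another class was read as background there. A macrophage cluster with a median of 10036.5 UMIs per cell (230 and 100 cells, epithelial markers at 46.0 and 59.1%) was kept apart from the class. Clusters that took no name are given by number. These 4 clusters held 2666 and 2155 cells, or 24.0 and 20.0% of those kept, with epithelial markers at 42.5 and 48.0%. They enter neither the tumor cells nor another class.

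Of the 36 members, 31 reached 20 CPM in both libraries in at least 1 class, and 33 reached it in at least 1 library. Of those 33, 28 were highest in the same class in both libraries. The same share over all genes was not computed. The members that missed 20 CPM in every class in at least 1 library were Itga8, Itgad, Itgb6, Itgb8 and Lamc3. Different classes led in the 2 libraries for Itga4, Itga5, Itga8, Itga9 and Itgb1.

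Among the leukocyte members are a pair of neighboring genes, Itgam and Itgax, which encode the alpha chains of complement receptors of myeloid cells. Itgam lies at chr7:128062640-128118491 and Itgax at chr7:128129547-128150657, both on the plus strand of GRCm38. Itgad follows at chr7:128154376-128223816. The neighbors differed in use: Itgam was highest in neutrophils, Itgax in macrophages, and Itgad stayed under 5 CPM in every class. Because of this contrast, the 250 bases before the RefSeq start of Itgam (chr7:128062390-128062639) and of Itgax (chr7:128129300-128129549) are shown, 5′ to 3′ on the plus strand, from RefSeq on GRCm38.p6. Capitals mark GAGGAA on either strand in Itgam, a core of ETS factors of the PU.1 type, and TGANTCA in Itgax, the AP-1 element.
Itgam: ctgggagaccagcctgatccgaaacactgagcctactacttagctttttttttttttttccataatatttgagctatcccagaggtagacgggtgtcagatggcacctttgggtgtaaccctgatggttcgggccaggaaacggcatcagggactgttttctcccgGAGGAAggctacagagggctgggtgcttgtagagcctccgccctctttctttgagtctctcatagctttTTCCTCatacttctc
Itgax: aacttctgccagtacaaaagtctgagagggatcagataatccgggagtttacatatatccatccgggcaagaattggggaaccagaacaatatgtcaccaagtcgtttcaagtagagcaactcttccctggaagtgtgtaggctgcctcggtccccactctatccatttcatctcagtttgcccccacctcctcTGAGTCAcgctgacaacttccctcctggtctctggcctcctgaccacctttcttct
The matches began 84 and 15 bases before the start of Itgam and 56 bases before that of Itgax. GAGGAA or its reverse complement was present in 23.3% of all 32851 promoter windows of this length, and TGANTCA in 6.75%. Of the 23 members with a promoter window, 13 held GAGGAA in at least 1 window and 1, Itgax, held TGANTCA. Some members have more than 1 window, so these counts are not on the scale of the shares of single windows. The Itgam window held no TGANTCA and the Itgax window no GAGGAA. A match describes these letters only, and no binding was measured.

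**Figure D1:**
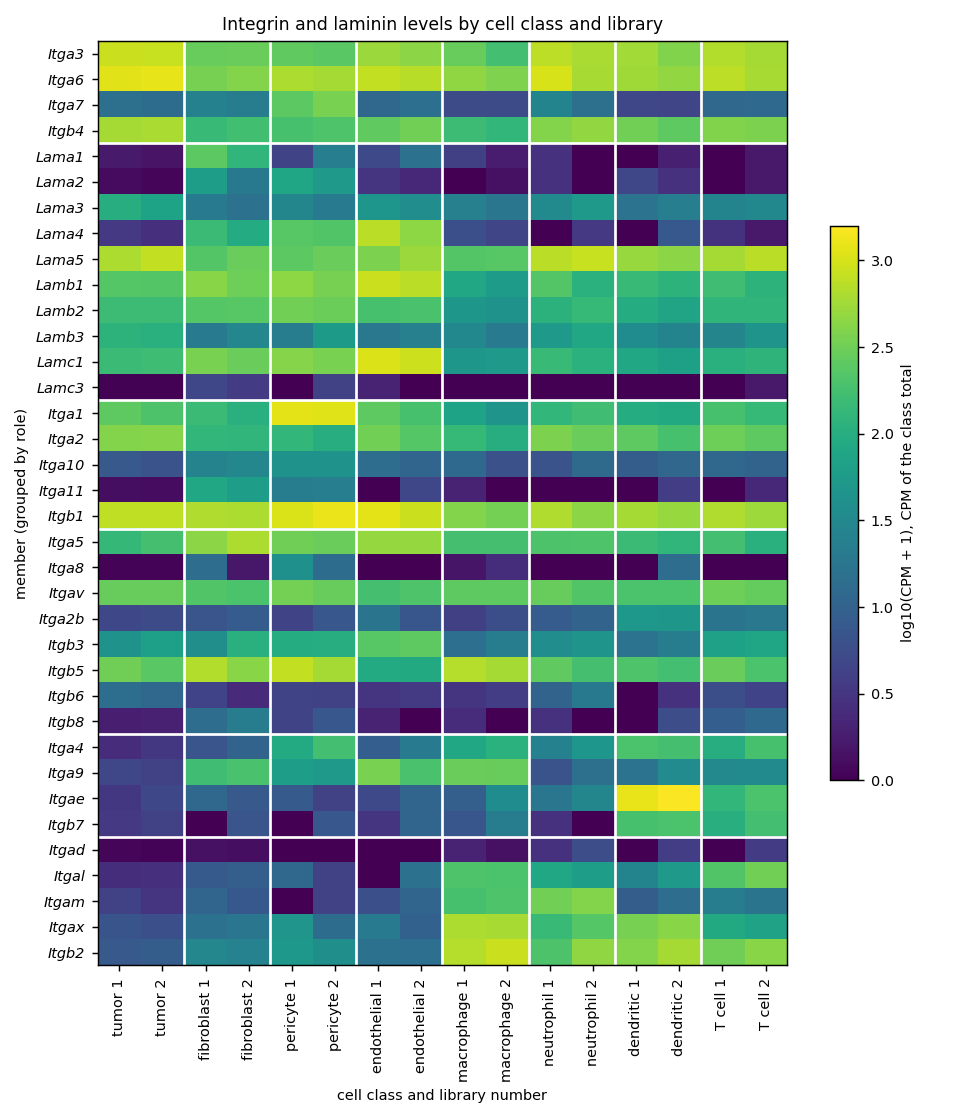
Level of each of 36 members (rows, grouped by role) in 8 cell classes and 2 libraries (columns), colored by log10(CPM + 1) of the class total. The 2 columns of a class resemble each other for most members, and Itgae, Itgb7, Itgal, Itgam, Itgax and Itgb2 are brightest in leukocytes, Itgae most of all in dendritic cells.

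Of the integrin chains that bind laminin, Itga3, Itga6 and Itgb4 were highest in tumor cells in both libraries. Itga6 stood at 1146 and 1204 CPM in tumor cells, above every other class, with 802 and 716 in endothelial cells and 349 and 398 in fibroblasts. Itgb4, the beta chain that pairs with Itga6 in hemidesmosomes, stood at 581 and 625 CPM in tumor cells and at 148 and 168.9 in fibroblasts. The fibroblast level of Itgb4 was 25.5 and 27.0% of the tumor level, close to the epithelial markers. Itga3, the alpha chain of the other main laminin receptor of epithelia, was at 867 and 863 CPM in tumor cells, at 525 and 443 in endothelial cells, at 757 and 612 in neutrophils and at 285 and 177 in macrophages, the lowest class in library 2. Endothelial cells held 70.0 and 59.5% of the tumor level of Itga6 and 45.1 and 52.3% of that of Itgb4, beside an epithelial background of 21.2 and 25.2%. Without the endothelial subclusters that carry markers of another class (37 and 42 cells), Itgb4 stood at 205 and 161 CPM, or 35.3 and 25.8% of the tumor level, and the epithelial background at 14.5 and 13.9%. Itga6 stood at 71.2 and 59.7% there. Neutrophils held 88.0 and 50.3% of the tumor level of Itga6, beside an epithelial background of 44.5 and 63.5% there. The part of tumor RNA in these leukocyte values was not tested.

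Itga7, which binds laminin in muscle, was highest in pericytes. It reached 245 and 356 CPM there and lay between 3.83 and 26.4 CPM in library 1 and between 3.72 and 21.1 in library 2 in the other 7 classes. The pericyte intervals, 191 to 311 and 293 to 428 CPM, overlapped slightly between libraries and lay far above those of the other classes. Pericytes also held Itga6 at 640.2 and 582 CPM, or 55.9 and 48.3% of the tumor level, beside an epithelial background of 26.9 and 25.2%. The 3 highest cells gave 34.44 and 53.55% of the 180 and 183 Itga6 UMIs in pericytes. The part of tumor RNA in this value was not tested.

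Lama3 and Lamb3, the alpha and beta chains of the laminin that anchors epithelia (called the anchoring chains below), were highest in tumor cells in both libraries. Lamb3 stood at 117 and 107 CPM there and Lama3 at 96.2 and 70.5. In fibroblasts they stood at 17.7 and 27.5% (Lamb3) and 20.2 and 20.5% (Lama3) of the tumor level, around the 21.8 and 23.7% of the epithelial markers. Without the fibroblast subclusters that carry markers of another class (89 and 148 cells), Lamb3 was at 13.2 and 13.97% and Lama3 at 9.86 and 15.8%, and the epithelial markers at 13.7 and 14.6%. The endothelial values of Lama3, 49.2 and 51.6%, were above the background of that class, while those of Lamb3, 15.5 and 22.2%, were not.

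Lama5, the alpha chain of the broad epithelial and vascular laminins, was at 644 and 802 CPM in tumor cells. Neutrophils had the highest value, 734 and 865 CPM, or 114 and 108% of the tumor level. Neutrophils were the class with the fewest UMIs per cell, a median of 1285.5 and 1194, and with an epithelial background of 44.5 and 63.5%. Whether that background accounts for the Lama5 value was not tested. Lamb2, a beta chain found in vessels and at synapses, ranged from 327 and 302 CPM in pericytes to 48.1 and 41.4 in macrophages.

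The tumor clusters differed in the anchoring chains. Of the 18 members that reached 20 CPM in both libraries of a tumor cluster, 7 spanned at least 4-fold from the lowest to the highest cluster in both libraries, beside 14.4% of all genes: Itga1, Itga5, Itga7, Itgb3, Itgb6, Lama3 and Lamb3. Both anchoring chains were highest in the same cluster in both libraries, cluster 5 (763 and 638 cells), whose leading genes were Adm, Hspa1a, Aqp3 and Cdkn1a. Lama3 stood at 590.4 and 457 CPM in cluster 5, with intervals of 572 to 609 and 440.2 to 473. It was at 148 and 217 in cluster 9, led by Mmp7, Pigr and Reg3b, and at 11.1 and 8.42 in cluster 0, led by Ivl, Chsy3 and Mmp3. Lamb3 stood at 314 and 374 in cluster 5, 175 and 208 in cluster 9 and 25.3 and 18.1 in cluster 0. The chains shared both their highest and their lowest tumor cluster in both libraries.

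The cells of cluster 5 were shallow for tumor cells, with a median of 6321 UMIs against 18275 in cluster 0. Thinned to 1000 UMIs per cell, 19.6% of the cells of cluster 5 in library 1 (exact Clopper-Pearson 95% interval 16.8 to 22.6) and 21.6% in library 2 (18.4 to 25.01) held a Lama3 UMI. In cluster 0 the shares were 1.08% (0.668 to 1.64) and 0.751% (0.205 to 1.91). Without thinning they were 42.1 and 47.8% in cluster 5 and 19.2 and 13.9% in cluster 0. Thinned neutrophils, which are not known to make Lama3, held it in 1.28 and 3.61% of cells, and thinned fibroblasts in 1.19 and 1.22%. At 1000 UMIs a Lamb3 UMI was seen in 11.7% (9.51 to 14.3) and 22.04% (18.8 to 25.5) of the cells of cluster 5 and in 2.51 and 2.25% of those of cluster 0. In library 1 clusters 3 and 9 held Lamb3 more often than cluster 5, in 18.2% (15.6 to 21.0) and 16.85% (14.02 to 19.99) of cells. In library 2 they were below cluster 5, at 12.3% (10.5 to 14.3) and 19.4% (15.1 to 24.3), with overlapping intervals for cluster 9. Lama3 and Lamb3 were seen together in 6.21 and 9.89% of the cells of cluster 5 and in 3.94 and 4.28% of those of cluster 9. At that depth none of 1951 cells in library 1 and none of 533 in library 2 held both in cluster 0, which allows up to 0.189 and 0.690% of cells thinned alike. Without thinning, both were seen in 29.6 and 36.7% of the cells of cluster 5 and in 8.41 and 4.50% of those of cluster 0. Clusters 3 and 9, with medians of 19261 and 10232 UMIs, were above cluster 5 on that unthinned measure. Both chains were seen in 57.4 and 41.1% of the cells of cluster 3 and in 52.2 and 42.8% of those of cluster 9. Thinning left out 22 and 21 cells of cluster 5 and none of cluster 0.

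Receptor chains differed between tumor clusters too, some with the anchoring chains and some not. Itgb6, an epithelial partner of Itgav that activates TGF-beta, was under 20 CPM in the tumor pool (13.5 and 11.04) but reached 41.2 and 44.4 CPM in cluster 9, 23.01 and 20.8 in cluster 5 and 22.5 and 22.4 in cluster 3, a cluster led by Gkn2, Spink4, C3 and Tff2. It was at 1.87 and 1.55 CPM in cluster 0. Itga1, a collagen receptor chain, was highest in cluster 3 (350 and 287 CPM) and lowest in cluster 5 (71.2 and 46.8), the reverse of the anchoring chains in cluster 5. Itga5, which forms the fibronectin receptor with Itgb1, was high in cluster 5 (275 and 381) and in cluster 12 (292 and 289), led by Mmp10, Apoc2 and Cck, and low in cluster 9 (61.8 and 67.6) and cluster 3 (63.9 and 73.2). Itgb3, which pairs with Itgav, was highest in cluster 12 in library 2 (74.98 and 144 CPM) and lowest in cluster 9 (14.1 and 22.8). In library 1 its value in cluster 16, led by interferon-induced Ifit3 and Rsad2, was level with cluster 12 (75.3 and 32.1). Cluster 12 had 44 cells in library 1 and 572 in library 2. Itga7 was highest in cluster 14, led by Muc5b and Muc5ac, in library 1 (38.1 and 22.5) and in cluster 3 in library 2 (18.95 and 23.3).

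The main laminin receptors moved less. Itga3 ranged from 704 to 1213 CPM in library 1 and from 648 to 1045 in library 2 over the 11 clusters, and Itga6 from 824 to 1619 and from 849.8 to 1543. Itgb4 was lowest in cluster 13, led by Insm1 and Il11, with 338 and 356 CPM, and highest in cluster 3 in library 1 (734 and 809.9) and in cluster 14 in library 2 (684 and 871). Cluster 5 held 673 and 868. Of the unnamed clusters, cluster 1, led by the amino acid response genes Chac1, Trib3 and Aldh1l2, had Lama3 at 21.8 and 17.1 CPM and Itgb4 at 449.7 and 496.

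**Figure D2:**
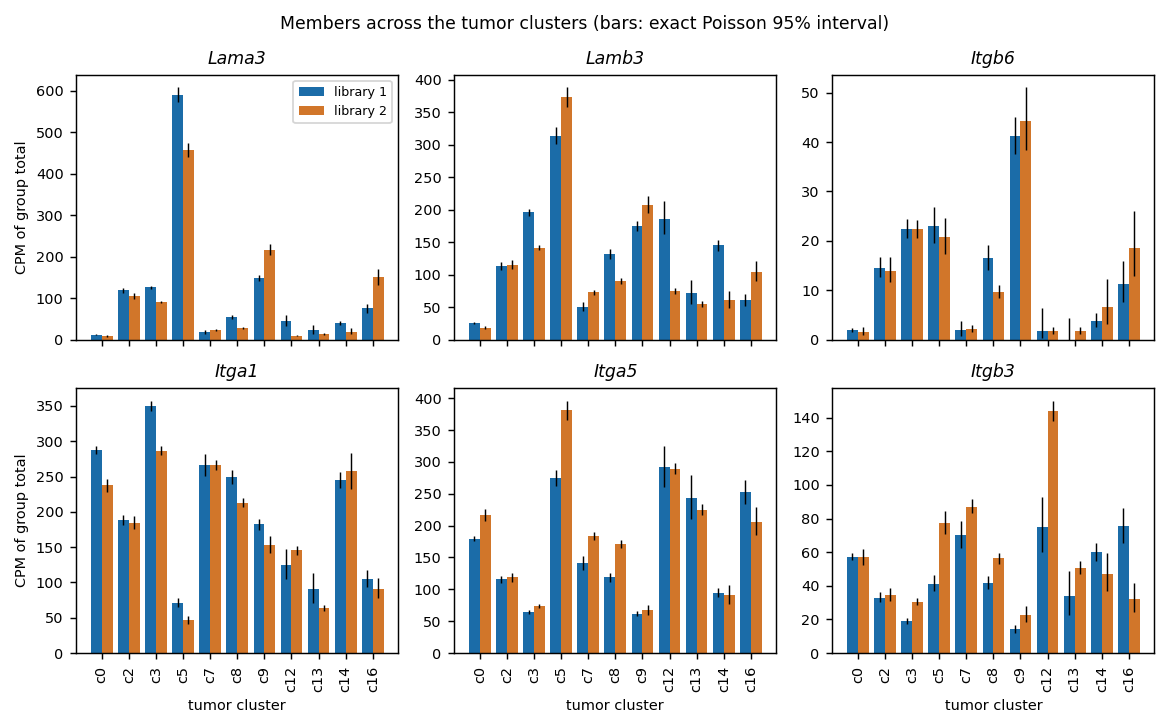
CPM of 6 members (y axis, from 0) in the 11 tumor clusters (x axis) in library 1 (blue) and library 2 (orange), with exact Poisson 95% intervals as error bars. Lama3 and Lamb3 peak in cluster 5 in both libraries, Itgb6 peaks in cluster 9, and Itga1 is lowest in cluster 5.

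The vessels carried the chains of the endothelial laminin with Lama4. Lama4 was highest in blood endothelial cells (731 and 455.1 CPM), followed by pericytes (231 and 216) and fibroblasts (149.5 and 92.8), and was at 2.37 and 1.81 in tumor cells. The endothelial intervals, 679 to 786 and 409 to 504 CPM, lay apart between libraries. Lamc1, the gamma chain of most laminins, stood at 1071 and 894 CPM and Lamb1, its usual beta partner, at 875 and 737 in endothelial cells. In tumor cells they stood at 152 and 158 and 226 and 222. At least 4-fold above tumor cells in both libraries were 3 of 18 members in endothelial cells, beside 6.88% of all genes: Itga9, Lama4 and Lamc1.

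Endothelial cells also led Itgb3 (235 and 252 CPM) in both libraries. Itga5 was at 486 and 496 CPM in endothelial cells and at 442 and 643 in fibroblasts. The 2 classes changed places between libraries, with fibroblast intervals of 417 to 468 and 616 to 671 and endothelial intervals of 444 to 532 and 449 to 548. Itga9, a receptor of tenascin and of VCAM-1, was at 355 and 189 in endothelial cells, 296 and 282 in macrophages and 163 and 193 in fibroblasts. When endothelial cells were clustered again, a subcluster with all 6 lymphatic markers raised (9 and 6 cells) also had 6 fibroblast and 4 macrophage markers raised and held Itga9 at 692 and 521 CPM and Lama5 at 20.96 and 90.6, against 429 and 246 and 317 and 334 in the main subcluster (111 and 87 cells). With so few cells the lymphatic values describe those cells only.

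Pericytes had the most members at least 4-fold above tumor cells in both libraries, 9 of 24, beside 6.07% of all genes: Itga1, Itga4, Itga7, Itga9, Itga10, Itga11, Itgb2, Lama2 and Lama4. Itga1 reached 1156 and 1094 CPM in pericytes and 254 and 203 in tumor cells. Of the other collagen receptors, Itga10, known from cartilage, was at 42.7 and 41.3 in pericytes and 25.9 and 29.5 in fibroblasts. Itga2, which completes the group, was highest in tumor cells (400.1 and 413). The class rests on 281167 and 314567 UMIs in all. Itgb2, a leukocyte chain, and Itga4, which leukocytes also carry, were at 49.8 and 38.1 and 88.9 and 175 CPM in pericytes. Itgb2 in pericytes came from 14 and 12 UMIs, and Itga4 from 25 and 55 UMIs in 13 and 27 cells. Itga11 came from 6 and 7 UMIs, of which the 3 highest cells gave 83.3 and 100%, and Itga9 from 17 and 16. Fibroblast markers summed to 33429 and 28875 CPM in pericytes, with 9 of 12 at 20 CPM or more in both libraries, and macrophage markers to 1127 and 347, with 4 of 12. The part of RNA from fibroblasts and leukocytes in these values was not tested. Itgb1, the beta chain shared by most matrix receptors, was at 1031 and 1259 CPM in pericytes, 1162 and 884 in endothelial cells and 777 and 777 in tumor cells.

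Fibroblasts were set apart by Itga11 and Lama1. Itga11, the collagen receptor chain of fibroblasts, stood at 82.8 and 60.8 CPM, with 21.3 and 22.3 in pericytes and under 4 in every other class. Lama1, an alpha chain of early basement membranes, stood at 245 and 128 CPM, with 3.56 and 22.3 in pericytes and 0.710 and 0.496 in tumor cells. Lama2, the alpha chain of muscle and mesenchyme, stood at 60.3 and 18.7 CPM in fibroblasts and 78.2 and 50.9 in pericytes. At least 4-fold above tumor cells in both libraries were 4 of 23 members, beside 6.21% of all genes: Itga9, Itga11, Lama1 and Lama4. Lama2 missed that count because its library 2 level in fibroblasts was under 20 CPM. Itgb5, which pairs with Itgav to hold vitronectin, was at 682 and 429.8 in fibroblasts, 814 and 579 in pericytes, 704 and 579 in macrophages and 90.6 and 86.5 in endothelial cells. Itgav itself varied little, from 177 to 334 CPM in library 1 and from 194 to 286 in library 2 over the 8 classes.

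Fibroblasts clustered again, without the members, fell into 5 subclusters. The largest (178 and 117 cells), led by Igf2, Abi3bp, Lrrc15 and Fmod beside immunoglobulin transcripts, held the laminin alpha chains: Lama1 at 352 and 268 CPM, Lama2 at 82.5 and 46.9 and Lama4 at 213 and 159. A second subcluster (42 and 126 cells), led by Slpi, Saa3, Cxcl12 and Col4a6, had Lama1 at 64.9 and 30.3, Lama2 at 0 and 4.18 and Lama4 at 118 and 80.5. Itga5 was at 738 and 1007 CPM in that second subcluster and at 456 and 526 in the largest. Itgb8, which stood at 13.1 and 20.8 CPM in the class as a whole, was at 59.03 and 22.99 there. Itga11 was at 101 and 97.9 in the largest and 41.3 and 65.8 in the second. Of the other subclusters, one led by Htra1 and A2m (59 and 61 cells) had Lama1 at 285 and 262 CPM, one carried 13 epithelial markers raised over the rest of the fibroblasts (59 and 71 cells) and one 12 macrophage markers (30 and 77 cells).

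**Figure D3:**
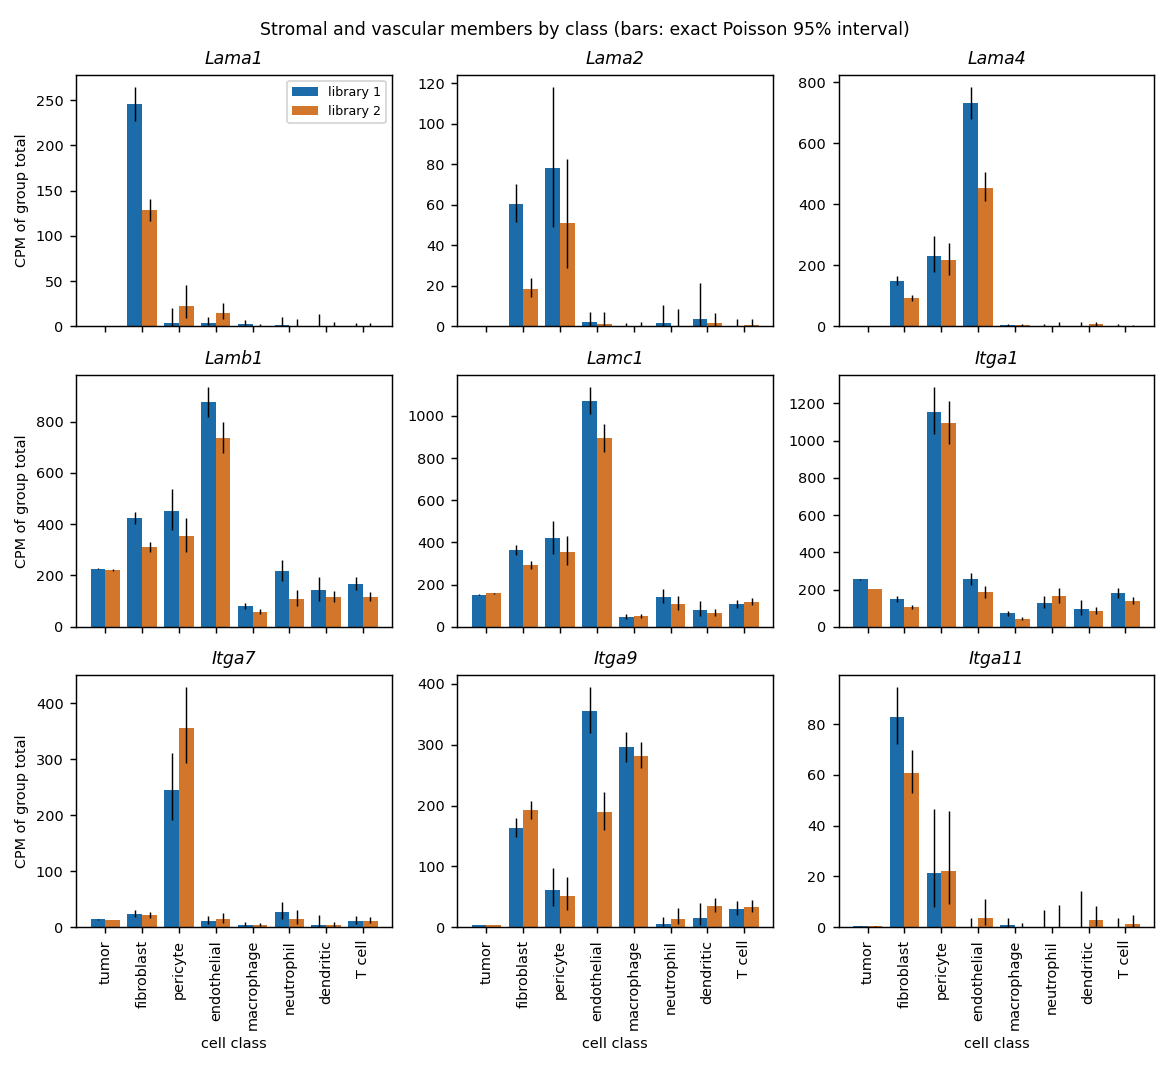
CPM of 9 members (y axis, from 0) in 8 cell classes (x axis) in library 1 (blue) and library 2 (orange), with exact Poisson 95% intervals as error bars. Lama4, Lamb1 and Lamc1 are highest in endothelial cells, Itga1, Itga7 and Lama2 in pericytes, and Lama1 and Itga11 in fibroblasts.

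Leukocytes carried a set of integrins of their own, those with Itgb2 or Itgb7. Itgb2, the shared beta chain of leukocyte adhesion, was at 703 and 870 CPM in macrophages, 403 and 585 in dendritic cells, 323 and 424 in T cells, 200.1 and 468 in neutrophils and 6.91 and 7.72 in tumor cells. Its alpha partners split by cell type. Itgam stood at 327 and 404 CPM in neutrophils and 183.1 and 206 in macrophages. Itgax stood at 644 and 609 in macrophages, 349 and 427 in dendritic cells and 145 and 227 in neutrophils. Itgal, the alpha chain of LFA-1, which holds ICAM-1, stood at 216 and 332.2 in T cells and 209 and 197 in macrophages. In library 1 the T cell and macrophage intervals of Itgal overlapped, 188 to 246 against 189 to 230, and in library 2 they did not. These T cell values include subclusters that carry markers of another class (68 of 124 and 147 of 356 cells), and the order changes without them. T cells then held Itgb2 at 1199 and 1050 CPM, above macrophages in both libraries. Their Itgal was then at 713 and 829, also above macrophages in both libraries. The epithelial background of T cells was 25.1 and 21.2% without those subclusters.

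Itgae, the alpha chain that binds E-cadherin on epithelia, was above all a gene of dendritic cells, at 1246 and 1516 CPM, with 129.7 and 197 in T cells and 2.32 and 3.89 in tumor cells. Itgb7, its only beta partner, was at 184 and 194 in dendritic cells and 99.98 and 176 in T cells. Itga4, which pairs with Itgb7 or Itgb1, was at 196 and 177 in dendritic cells, 97.01 and 184 in T cells and 80.3 and 111 in macrophages. Pericytes, at the Itga4 level given above, lay above macrophages in both libraries. Without the marked subclusters T cells held Itgb7 at 351 and 457 CPM and Itga4 at 419 and 527, above dendritic cells in both libraries, while Itgae, at 521 and 478, stayed below them. Itga2b, the platelet alpha chain, was also highest in dendritic cells, at 49.8 and 48.4 CPM from 13 and 52 UMIs, of which the 3 highest cells gave 61.5 and 32.7%.

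At least 4-fold above tumor cells in both libraries were 6 of 22 members in macrophages, beside 7.39% of all genes: Itga4, Itga9, Itgal, Itgam, Itgax and Itgb2. In neutrophils it was 5 of 21, beside 3.19% of all genes: Itga4, Itgal, Itgam, Itgax and Itgb2. In dendritic cells it was 7 of 23, beside 5.68%: Itga2b, Itga4, Itgae, Itgal, Itgax, Itgb2 and Itgb7. In T cells it was 7 of 23, beside 4.2%: Itga4, Itga9, Itgae, Itgal, Itgax, Itgb2 and Itgb7. Without the marked subclusters it was 7 of 23 in T cells beside 7.23%, with Itgb8 in place of Itga9. Itgb8 stood at 22.6 and 33.3 CPM there, close to the floor of 20 CPM. The whole T cell class held 8 and 17 Itgb8 UMIs. In endothelial cells it was then 5 of 18 beside 7.32%, with Itgb3 and Lamb1 added, and in fibroblasts 5 of 23 beside 7.1%, with Lama2 added. In the leukocyte classes integrin chains made up all of these members, and no laminin chain was among them.

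T cells clustered again gave a subcluster led by Ccl5, Xcl1, Cd8a and Gzma (47 and 151 cells) and one led by Foxp3, Il2ra and Ctla4 (6 and 36 cells). Itgae stood at 474 and 443 CPM in the first and 1228 and 929 in the second, and Itgb7 at 316 and 290.3 and 819 and 1071. Itgal was at 761 and 781 and 921 and 889. Subclusters of the T cell class differed in Itgax, which was at 115 and 38.1 CPM in the first. One with 12 macrophage markers raised (18 and 36 cells) had it at 316 and 317 CPM. Another, with 7 mast cell and 6 neutrophil markers raised (8 and 25 cells), had it at 1367 and 592. Itga9 was likewise at 135 and 163 in the macrophage-marked subcluster and 28.7 and 14.3 in the first. Itga2b was at 1480.5 and 549 CPM in the subcluster with mast cell and neutrophil markers, which had a median of 712 UMIs per cell. The whole T cell class held 16 and 27 Itga2b UMIs.

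**Figure D4:**
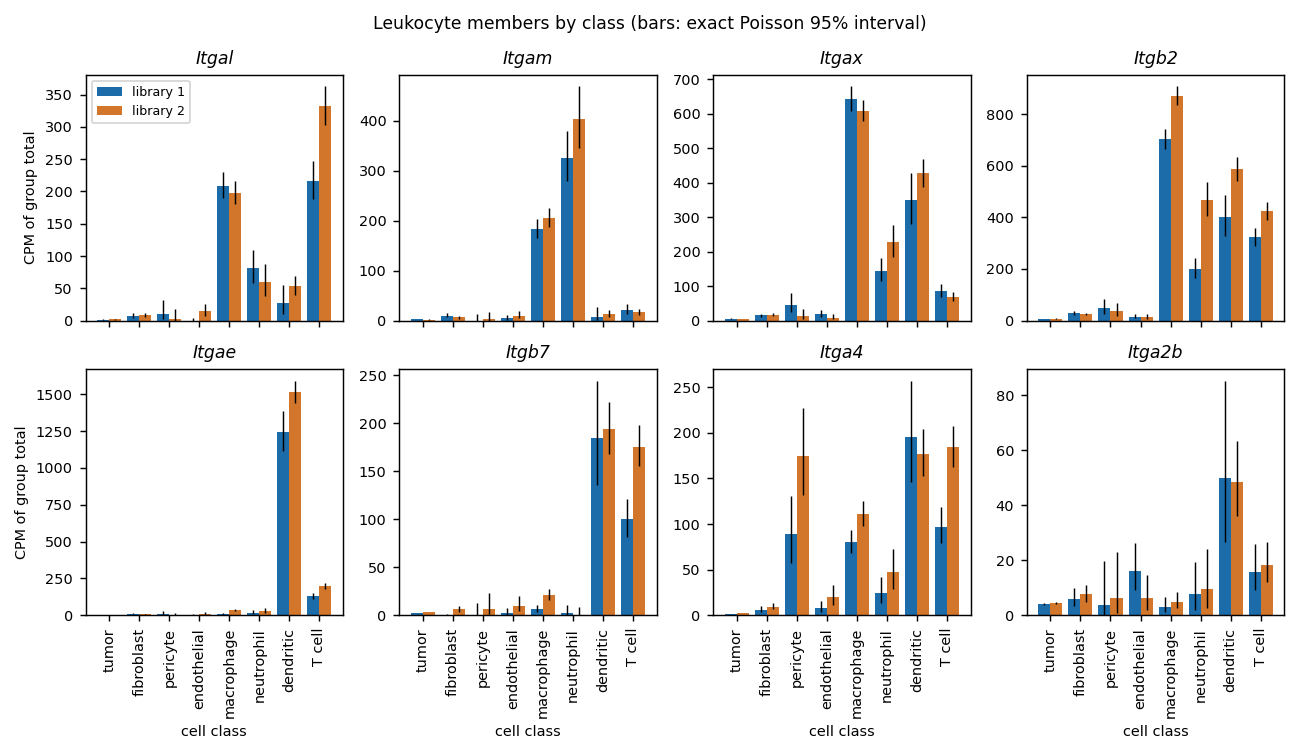
CPM of 8 members (y axis, from 0) in 8 cell classes (x axis) in library 1 (blue) and library 2 (orange), with exact Poisson 95% intervals as error bars. With the T cell class taken whole, Itgam is highest in neutrophils, Itgax and Itgb2 in macrophages, and Itgae in dendritic cells, while all 8 are below 10 CPM in tumor cells.

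Between libraries the members of tumor cells stood close to each other. A difference was called at 2-fold or more on CPM plus 1 with at least 20 CPM in 1 library. None of 16 members was called higher in library 2, beside 0.258% of all 8534 genes, and none lower, beside 0.234%. The median log2 ratio was 0.00039 over the members and 0.0052 over all genes. Among the members Itgb3 was farthest from 0, at 42.2 and 63.6 CPM or a log2 ratio of 0.58. With the tumor clusters of library 2 weighted by their UMI shares in library 1, its ratio was 0.18.

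A pair of members differed slightly but in the same direction in every tumor cluster, about as often as genes in general. The clusters come from the same libraries, so recurrence across them is not independent. Lama5 was higher in library 2 in all 11 clusters, by a log2 ratio of 0.23 to 0.50, and in the pool by 0.32. It was the only 1 of 15 members with 20 CPM in every cluster to do so, beside 5.53% of all genes. Itgb5 was lower in library 2 in all 11 clusters, with log2 ratios from -0.67 to -0.07 and -0.41 in the pool, or -0.24 with the clusters of library 2 weighted as in library 1. It was the only 1 of the 15 to be lower in all, beside 4.44% of all genes. Neither reached 2-fold in any cluster. By CPM the anchoring chains did not share a direction in cluster 5. Lamb3 was higher there in library 2 and Lama3 lower, at the values given above. By share of cells with a UMI, both chains were higher in library 2 in cluster 5, with and without thinning. The Lama3 shares were 42.1 and 47.8% without thinning. Thinned, they were 19.6 and 21.6%, with overlapping intervals. The direction of Lama3 between libraries thus depended on the measure. In cluster 12, with 44 cells in library 1, Lamb3 went from 186 to 74.3 CPM and Lama3 from 44.1 to 9.19.

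In fibroblasts 1 of 24 members was called higher in library 2, beside 1.07% of all 8667 genes, and 1 lower, beside 1.43%. The one called higher was Itgb3, at 37.5 CPM (30.5 to 45.6) in library 1 and 108 (96.9 to 120) in library 2, from 100 and 358 UMIs in 67 and 143 cells. Its log2 ratio was 1.5, and it was higher in library 2 in each of the 5 subclusters. In tumor cells Itgb3 was at 42.2 and 63.6 CPM. With tumor-cell RNA subtracted from the fibroblasts its log2 ratio was 1.68. The one called lower was Lama2, at 60.3 CPM (51.4 to 70.4) and 18.7 (14.3 to 23.9), from 161 and 62 UMIs, with a log2 ratio of -1.64. In the largest subcluster Lama2 was at 82.5 and 46.9 CPM, a smaller gap than in the class. Lama1 stood at 245 and 128 CPM with a log2 ratio of -0.93, short of the call, and at 352 and 268 in the largest subcluster. That subcluster gave 178 of 368 fibroblasts in library 1 and 117 of 452 in library 2, and the second, low in both chains, 42 and 126. Pericyte markers summed to 1065 and 878 CPM in fibroblasts, with 4 of 10 at 20 CPM or more in both libraries. The part of this shift between subclusters in the Lama1 and Lama2 ratios was not tested. Without doublet removal and with cells thinned to 1000 UMIs Itgb3 fell short of the call, with log2 ratios of 0.9998 and 0.82, and at Leiden resolution 2 Lama2 did, with -0.99. Without the subclusters marked by another class, Lama1 and Lama5 were called as well. The median log2 ratio of the 24 members was -0.03, against 0.04 over all genes.

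In macrophages 2 of 24 members were called higher in library 2, beside 0.759% of all 8692 genes, and none lower, beside 0.564%. Itgae stood at 8.18 CPM (4.68 to 13.3) and 35.3 (28.3 to 43.6), from 16 and 87 UMIs in 12 and 37 cells. Itgb7 stood at 6.14 CPM (3.17 to 10.7) and 21.1 (15.8 to 27.7), from 12 and 52 UMIs. Both are chains of dendritic and T cells, and both of those classes held more cells in library 2. The 10 dendritic cell markers summed to 250 and 381 CPM in macrophages, with 2 at 20 CPM or more in both libraries, and the T cell markers to 82.3 and 116. Their part in the result was not tested. Itgb7 missed the call and Itgae kept it without the 3 highest cells of each library, with 10 CPM added before the ratio, and under 6 other settings given at the end. With 10 CPM added and with thinned cells the log2 ratio of Itgb7 was 0.95 and 0.65. Under the other 6 it stayed above 2-fold, from 1.16 to 1.87 on the log2 scale, and the level fell under 20 CPM. At a floor of 50 CPM neither was called, since both lie under it. The main macrophage integrins did not reach 2-fold: Itgb2 had a log2 ratio of 0.31 and Itgax of -0.08.

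**Figure D5:**
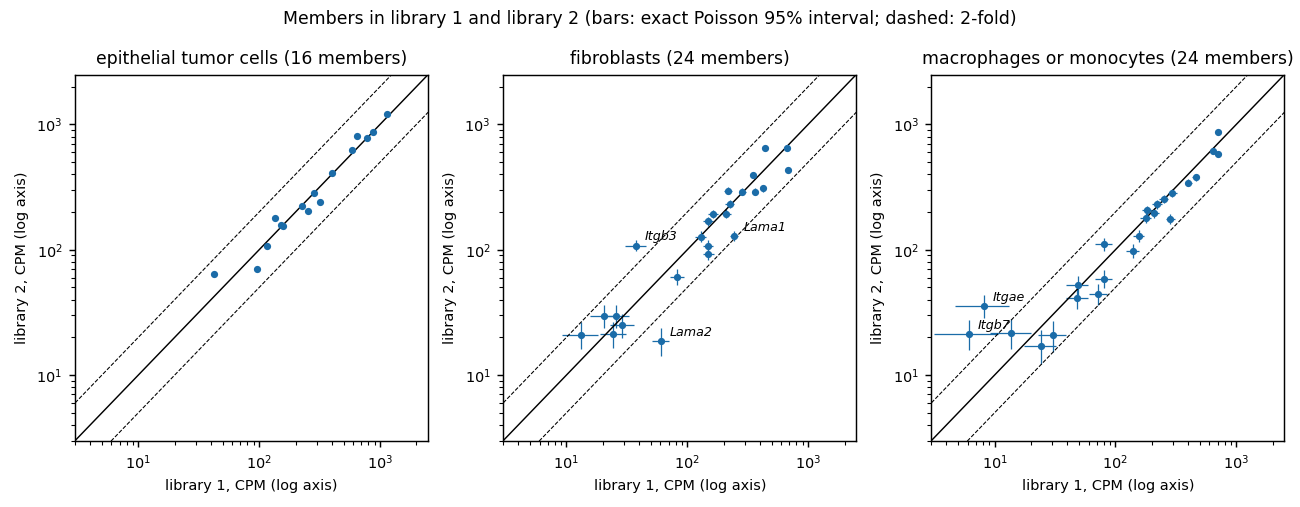
CPM of the members with at least 20 CPM in 1 library, in library 1 (x, log axis) against library 2 (y, log axis), for tumor cells, fibroblasts and macrophages, with exact Poisson 95% intervals. The solid line marks equal levels and the dashed lines 2-fold. No tumor cell member lies beyond the dashed lines, while Itgb3 and Lama2 do in fibroblasts and Itgae and Itgb7 in macrophages.

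Of 23 integrin activators and adaptors, 8 were highest in pericytes in both libraries, and 4 led in different classes in the 2 libraries. Leading classes were not counted over all genes, so these counts have no background. The kindlins, which switch integrins on, divided by class: Fermt1 was highest in tumor cells (204 and 172 CPM), Fermt2 in pericytes (256 and 184) and Fermt3 in macrophages (257 and 267). Of 23 activators and adaptors, 18 reached 20 CPM in tumor cells and none was called between libraries. Of all genes there, 0.258% were called higher and 0.234% lower. In macrophages 20 reached 20 CPM, and Fermt1 was called lower in library 2, beside 0.564% of all genes. Fermt1 in macrophages was at 72.1 and 34.1 CPM, and its tumor level is given above. In the hemidesmosome list Col17a1 was at 0 and 1.25 CPM in endothelial cells and 0.0789 and 0.189 in tumor cells, while Plec, the plectin that links Itgb4 to keratin, was at 1203 and 1698 in tumor cells and 1695 and 2356 in cluster 5. Col7a1, which the laminin with the anchoring chains binds, was highest in fibroblasts (396 and 258). Among the tumor clusters it stood at 237 and 424 in cluster 5, 305 and 387 in cluster 13, 291 and 309.9 in cluster 2 and 199 and 243 in cluster 0.

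Of 15 basement membrane partners of laminin, 4 were highest in endothelial cells in both libraries, 2 in pericytes, 1 in tumor cells and 1 in fibroblasts. The other 7 led in different classes in the 2 libraries. These counts too have no background over all genes. Col4a1 and Col4a2, the main type IV collagen chains, were at 13203 and 12064 and 9126 and 7674 CPM in endothelial cells and 326 and 333 and 191 and 209 in tumor cells. Nid2, a nidogen that bridges laminin to that collagen, was at 805 and 516 in endothelial cells and 2.70 and 4.31 in tumor cells. Agrn, which also binds laminin, was highest in tumor cells (651 and 690.1). Between libraries, none of 10 tested partners was called in tumor cells, beside 0.258% of all genes higher and 0.234% lower. In fibroblasts 1 of 13 was called higher, beside 1.07% of all genes: Col4a6, at 4.50 and 38.2 CPM. Col4a6 was among the leading genes of the second fibroblast subcluster, which had 42 and 126 cells. The part of that shift in the Col4a6 ratio was not tested. Among 13 tested matrix ligands of integrins, Thbs1 was called lower in library 2 in tumor cells (375 and 176 CPM), beside 0.234% of all genes. Spp1, osteopontin, was called lower in fibroblasts (6038 and 2831) and macrophages (4207 and 1988), and in tumor cells, where it was highest, it was at 12705 and 7491. That is 1 of 15 ligands tested in fibroblasts, beside 1.43% of all genes, and 1 of 12 in macrophages, beside 0.564%. Vcam1, a counter-receptor of Itga4 and Itga9, was called higher in fibroblasts (74.9 and 202), 1 of 6 counter-receptors tested there, beside 1.07% of all genes. Col1a2 was called higher in macrophages, 1 of 12 matrix ligands tested, beside 0.759% of all genes. Fibroblast markers summed to 737 and 1183 CPM in macrophages.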

How the data were processed

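The authors deposited unnormalized UMI counts for each gene and barcode. Per the submitters' processing notes, Cell Ranger 8.0.0 and the mm10 build were used. Integrin and laminin members and the other lists were chosen with earlier results of these data known. Cells below 200 genes or 500 UMIs, or with a mitochondrial share of 20% or more, were dropped (5 and 23). The automatic Scrublet threshold marked 1 and 0 cells and so did not work, and the highest scores were removed at 0.8% per 1000 cells instead (1217 and 1137). Cells were scaled to 10000 UMIs, and 3000 variable genes without the members, 50 components, 15 neighbors and Leiden resolution 1 gave the clusters (scanpy 1.11.5, leidenalg 0.10.2). A cluster's name came from the marker list of highest mean log2 fold, provided that this mean was 1 or more. At least 3 markers also had to reach 20 CPM and 2-fold, and 1 had to be among its 20 leading genes. Remaining clusters were scored against the named ones for epithelial markers. That scoring, the setting apart of clusters above 2 times the median UMIs, and the subclusters (resolution 0.5) were chosen after the clusters were seen. Classes needed 30 cells per library. Islet-like cells (18 and 8) were not used. 1 member is not reported here and enters no count of members. All others are named, and a called member has 2-fold or more on CPM plus 1 and at least 20 CPM in 1 library. The values of lower classes are given as ranges for some members. The call was tested on simulated data. Ratios under TMM factors used edgeR 4.0.16. Both libraries were pooled from several animals, so their difference includes that between pools.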

Additional observations from a re-analysis of the deposited data

How the results depend on the processing

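No paired analysis was possible because each treatment has 1 library and no test was run. Under 11 alternatives the number of members detected stayed between 29 and 36, the number highest in the same class in both libraries between 24 and 29, and, under 17 alternatives, the number called between libraries in tumor cells at 0. In fibroblasts the count of 2 (Itgb3 and Lama2) became 1 without doublet removal, with automatic Scrublet thresholds, at Leiden resolution 2 and with cells thinned to 1000 UMIs. The automatic thresholds marked 1 and 0 cells, so that setting nearly repeats the one without doublet removal, though each counts as an alternative. The fibroblast count became 4 with no level floor and 4 without the subclusters that carry markers of another class. In macrophages the count of 2 (Itgae and Itgb7) became 1 at Leiden resolutions 0.5 and 2, with cells of at least 1000 UMIs, with thinned cells, with 10 CPM added, with the mean of per-cell shares, without the 3 highest cells and with the high-UMI cluster counted as macrophages. It became 0 at a floor of 50 CPM, 5 with no floor and 4 with tumor-cell RNA subtracted. The cause was not tested. No ratio of the 7 members followed here (Itgae, Itgb3, Itgb5, Itgb7, Lama1, Lama2, Lama5) reversed under 15 alternatives each: Itgae ranged from 1.32 to 3.21, Itgb3 from 0.82 to 1.68, Itgb7 from 0.65 to 1.87, Lama1 from -1.004 to -0.33, Lama2 from -1.70 to -0.99, Lama5 from 0.26 to 0.34 and Itgb5 from -0.46 to -0.24 on the log2 scale. The subtraction could not be applied to tumor cells. The subclusters left out, the high-UMI cluster, cluster 12 and the cluster weights were alternatives added after the data were seen. Depth limits the small classes most, since pericytes hold 61 and 50 cells and dendritic cells 36 in library 1.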

Other observations

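Cluster 21 (44 and 70 cells) scored highest for macrophages, with 7 of their markers at the required level and fold. It took no name, because it missed another condition of the naming rule, and its leading genes included Mgl2, Napsa, Ccl17 and H2-Eb1. It held leukocyte integrins of both dendritic cells and macrophages. Itgae was at 1214 and 605 CPM, Itgax at 785 and 564, Itgb2 at 785 and 488, Itgam at 209.9 and 93.97 and Itgb7 at 137 and 206. Itgam and Itgae were thus both high in cluster 21, while the dendritic cells had Itgam at 7.67 and 13.03 CPM and the macrophages had Itgae at 8.18 and 35.3.

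Madcam1, the counter-receptor of the Itga4 and Itgb7 pair that is best known from gut vessels, was highest in blood endothelial cells at 82.6 and 103 CPM and at or under 2.97 and 2.03 in T cells, the next class. Vtn, vitronectin, was highest in pericytes at 24.9 and 41.3 CPM and at 0.0631 and 0.0393 in tumor cells.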
